A study of Mus musculus with 15 samples.

Results

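Cells carrying the second of 2 short hairpin RNAs against SHCBP1 (shSHCBP1_2) were compared with cells carrying the first (shSHCBP1_1), to ask how far a pair of hairpins aimed at the same messenger RNA leave cells in the same state. The members were all libraries of those 2 hairpins in the table that holds them: 3 of shSHCBP1_2 and 3 of shSHCBP1_1, 6 of the 15 libraries of the study. Every group carried a hairpin, and the 6 libraries of the comparison differ, per the labels, only in which SHCBP1 hairpin they carry. The 3 control libraries (NC, labelled sh_NC) lie in the same table and are given as a level only. The cells are labelled MDA-MB-468, an established human line from an invasive breast carcinoma, and the labels name neither a clone nor separate cultures. What the p-values measure is thus only how far libraries of 1 hairpin differ from each other, and that spread may be technical. Polyadenylated RNA was sequenced with a kit that does not mark the strand, so a gene and an overlapping antisense transcript cannot be told apart. Per the series' text, knockdown was assessed after transfection by quantitative PCR, and those values were not used here.

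A short hairpin RNA is processed by DICER1 into a short duplex, of which 1 strand, the guide, is loaded into an Argonaute protein and pairs with target transcripts. Full pairing leads to cutting of the target, and pairing of the seed alone, the bases near the 5′ end of the guide, can lower other transcripts, as a microRNA does. Hairpins with different guides share their intended target but not their seed targets, and for that reason knockdown studies use more than 1 hairpin. SHCBP1 binds the SHC1 adaptor of growth factor receptors and takes part in cytokinesis with the centralspindlin protein KIF23.

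The sequences that define the comparison are the guide strands, which are the single feature by which the labels separate the groups. Both hairpins were 97-base oligos with a microRNA-30-type loop and flanks. The guide was read as the 3′ arm, the position such a design gives it. It is printed 5′ to 3′ as DNA letters with the seed, bases 2 to 8, in capitals.
Guide of sh-SHCBP1-1: tTCAATTGaaaaatcaatgtga
Guide of sh-SHCBP1-2: tTTAATATcaacatttggctga
The sense arms, which carry the sequence of the target, stand below in lower case.
Sense arm of sh-SHCBP1-1: ccacattgatttttcaattgaa
Sense arm of sh-SHCBP1-2: ccagccaaatgttgatattaaa
The 2 guides held the same base at 12 of 22 positions, and the seeds at 4 of 7. Both were poor in G and C, with 5 of 22 bases (22.7%) in the first and 6 of 22 (27.3%) in the second. In each hairpin 1 base of the sense arm, the first, did not pair with the guide. The positions of the sites in SHCBP1 and seed matches in other transcripts were not analysed here.

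The 6 libraries held 13780294 to 16257001 counts. At these depths 3 counts, the limit that a count of 0 allows, correspond to 0.186 to 0.216 CPM (reads of a gene relative to the library total), and such limits cover counting error only. Levels below are CPM with totals scaled by the TMM method, with the NC libraries on the same scale. No pair of libraries was as close as sampling noise: the chi-square per gene was 1.74 to 2.19 within the 2 groups and 3.55 to 4.02 between them. Against NC it was 11.2 to 12.4 for shSHCBP1_1 and 17.5 to 19.2 for shSHCBP1_2. The first principal component of the 6 libraries held 27.5% of the variance and separated the groups. Defining keratins of a basal breast line were absent or nearly so, with KRT5 at 0 counts and KRT14 and KRT17 at or below 0.216 CPM in each of the 6 libraries. EGFR stood at 13.9 to 19.1 CPM, EPCAM at 5.66 to 8.43, KRT8 at 95.4 to 107 and VIM at 336 to 388. CDH1 and KRT18, further epithelial genes, stood at 12 to 14.4 and 51.2 to 58.1 CPM, and KRT7 and KRT19 at or below 0.216 CPM. NEFM and NEFL, neurofilament genes of neurons, stood at 202 to 272 and 147 to 167 CPM. Other neuronal genes were lower, with GAP43 at 3.18 to 4.65 CPM and STMN2 at 0.215 to 0.706 CPM. The leukocyte gene PTPRC was at 0 counts. The labelled line is used here as a name for the cells, with these levels beside it.

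SHCBP1 itself was only slightly apart between the hairpins. It stood at 52.1, 52.0 and 54.6 CPM in the shSHCBP1_1 libraries and at 50.4, 50.4 and 48.2 in those of shSHCBP1_2. The groups did not overlap, which held for 25.5% of all genes tested, and the shSHCBP1_2 libraries were the lower ones. The log2 difference, shSHCBP1_2 minus shSHCBP1_1, was -0.09 (SE 0.06, 95% interval -0.21 to 0.02), and the adjusted p was 0.353 in edgeR's quasi-likelihood test. In NC it stood at 51.8, 50.0 and 46.4 CPM, which overlapped the second hairpin, and every library of the first hairpin was above every NC library. TMEM45A, the target of the study's other hairpins, stood at 31.3, 28.8 and 35.3 CPM with the first hairpin and at 27.4, 28.9 and 25.8 with the second (log2 difference -0.22, SE 0.07, adjusted p = 0.055). Its groups overlapped. Without replicate 2 of shSHCBP1_1 the TMEM45A difference was -0.28 with an adjusted p of 0.0203, and with a filter on CPM it was -0.22 with 0.0493.

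Across 17567 genes tested, 1674 (9.53%) passed an adjusted p of 0.05. Of these, 894 (5.09% of the genes tested) were higher in shSHCBP1_2 and 780 (4.44%) were lower. The changes were small: the median size among the 1674 genes was 0.21 on the log2 scale, or 1.15-fold, with quartiles of 0.15 and 0.29. Only 33 genes (0.188%) changed more than 2-fold, 12 higher and 21 lower, and 29 of these lay below 4 CPM. The groups did not overlap for 1576 of the 1674. The count depended on single libraries: it was 1048 without replicate 1 of shSHCBP1_1 and 1078 without replicate 3 of shSHCBP1_2. The share of calls that were higher was 53.4% with TMM scaling and 71.1% with scaling to total counts, which moved the median log2 difference of all genes from -0.01 to 0.02.

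The direction of the calls moved with the level of the gene. Below 4 CPM 0.384% of genes were higher and 0.662% lower. Between 16 and 64 CPM the shares were 8.01% and 3.09%, and between 64 and 256 CPM 9.76% and 9.54%. Above 256 CPM 4.96% were higher and 39% lower. Cytosolic ribosomal protein genes made up part of that top class, and without them 5.7% of its genes were higher and 31.9% lower. This share is the background for every list of abundant transcripts below. For all lists, the shares over all genes tested are 5.09% higher and 4.44% lower. Those shares include the genes below 4 CPM, of which few were called, so lists of genes above 16 CPM have a higher background for rises up to 256 CPM.

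**Figure D1:**
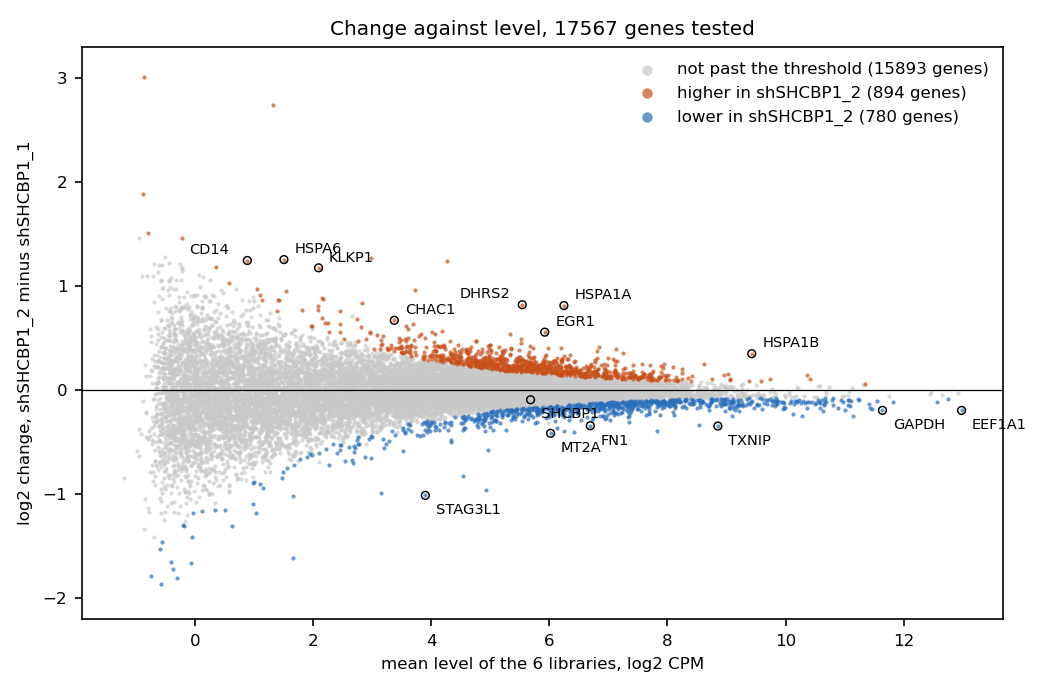
Log2 difference of shSHCBP1_2 minus shSHCBP1_1 (vertical axis) against the mean level of the 6 libraries in log2 CPM (horizontal axis) for the 17567 genes tested, each point a gene. Orange genes (894) were higher, blue genes (780) lower and grey genes not past the threshold, and at the right end, above 256 CPM, blue points outnumber orange ones.

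Several cytosolic heat shock genes rose. These genes encode chaperones and their cofactors and are known as targets of the transcription factor HSF1. Of 20 members tested, 9 were higher and 0 lower (45% against 5.09% of all genes), and the median log2 difference of the list was 0.08 against -0.01 over all genes. HSPA1B, an inducible HSP70 chaperone, stood at 577, 609 and 630 CPM with the first hairpin and at 770, 773 and 773 with the second. All 3 libraries of the second hairpin were above all of the first, and the NC libraries (650, 669 and 671) lay between them. The log2 difference was 0.35 (SE 0.03, adjusted p = 1.66e-13). HSPA1A, its near-identical copy, stood at 61.1, 39.2 and 64.3 CPM with the first hairpin and at 94.2, 90.6 and 106 with the second (0.81, SE 0.08). Reads of the 2 copies can be assigned to either. Summed over both, the level was 638, 648 and 694 CPM against 864, 863 and 879, which is a log2 ratio of 0.40 with no overlap. HSPH1, an HSP110 cochaperone that acts on HSP70, stood at 119, 120 and 123 CPM and at 158, 159 and 161 (0.40, SE 0.04, adjusted p = 4.03e-11), with NC below both at 78.7 to 85.8. DNAJB1, an HSP40 cochaperone, stood at 95.6, 100.3 and 98.5 CPM and at 130, 135 and 127 (0.41, SE 0.04), and here NC, at 93.9 to 100.4, was level with the first hairpin. HSPA6, a strictly inducible HSP70, was rare, at 1.98, 1.15 and 1.84 CPM and at 4.54, 2.47 and 5.01 (1.26, SE 0.26, adjusted p = 0.000865). BAG3, another HSP70 cofactor, rose by 0.23, and without replicate 1 of shSHCBP1_2 its adjusted p was 0.0554. The summed level of the list was nearly flat, at 8337 to 8512 CPM against 8625 to 8710 in a list of which 11 of 20 members did not pass the test. DESeq2 called 5 members higher in place of 9.

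Several genes of the integrated stress response and of amino acid supply also rose. In this response the transcription factor ATF4 switches on genes for amino acid transport, synthesis and stress signalling. Of 26 members tested, 10 were higher and 1 was lower (38.5% higher against 5.09% of all genes), with a median of 0.07. CHAC1, a glutathione-degrading enzyme induced through ATF4, stood at 7.75, 8.0 and 8.20 CPM with the first hairpin and at 13, 11.8 and 13.4 with the second. The groups stood well apart, and NC was far below both at 1.24 to 1.79 CPM. The log2 difference was 0.67 (SE 0.12, adjusted p = 0.000115). CEBPB, a transcription factor and partner of ATF4, stood at 20.02, 19.8 and 22.5 CPM and at 27.8, 27.5 and 26.6 (0.40, SE 0.08). TRIB3, a pseudokinase, rose by 0.37 (SE 0.07), CEBPG, another ATF4 partner, by 0.30 (SE 0.05), and SESN2, a leucine sensor upstream of mTORC1, by 0.30 (SE 0.05). In each of these 3 genes the order of the group means was NC, first hairpin, second hairpin, as in CHAC1: SESN2 stood at 40.3 to 42.0 CPM in NC, 65.1 to 68.8 with the first and 78.2 to 83.7 with the second. DDIT4, an inhibitor of mTORC1, stood at 98.1, 104 and 99.1 CPM and at 116, 129 and 126 (0.31, SE 0.04). SLC3A2, the heavy chain of the cystine and large neutral amino acid transporters, stood at 285, 283 and 280 CPM and at 328, 327 and 321 (0.20, SE 0.03). ATF4 itself rose by 0.09 (SE 0.02, adjusted p = 0.0173) from 741 to 754 CPM to 786 to 807, a call lost in 4 of the 6 fits that left out a library. The member that was lower, CBS, a transsulfuration enzyme with a near-identical copy in the annotation, rested on replicate 2 of shSHCBP1_1 (141 CPM against 83.7 and 82.2 in the other two): the difference of -0.29 was 0.01 without that library.

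Aminoacyl-tRNA synthetases of the cytosol, which charge tRNAs with amino acids and of which many are known ATF4 targets, were taken by name after the values were seen. Of 18, 8 were higher and 2 lower (44.4% and 11.1%), with a median of 0.08. TARS, for threonine, stood at 195, 193 and 188 CPM and at 224, 233 and 223 (0.24, SE 0.03, adjusted p = 9.84e-07). CARS, for cysteine, rose by 0.19 (SE 0.04) and GARS, for glycine, by 0.18 (SE 0.03). The lower ones, KARS and QARS, fell by 0.10 each, and each lost its call in 5 of the 6 fits without a library. Among the 17 synthetases of mitochondria named in the same way, 0 were higher and 2 lower (11.8%), with a median of -0.01.

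**Figure D2:**
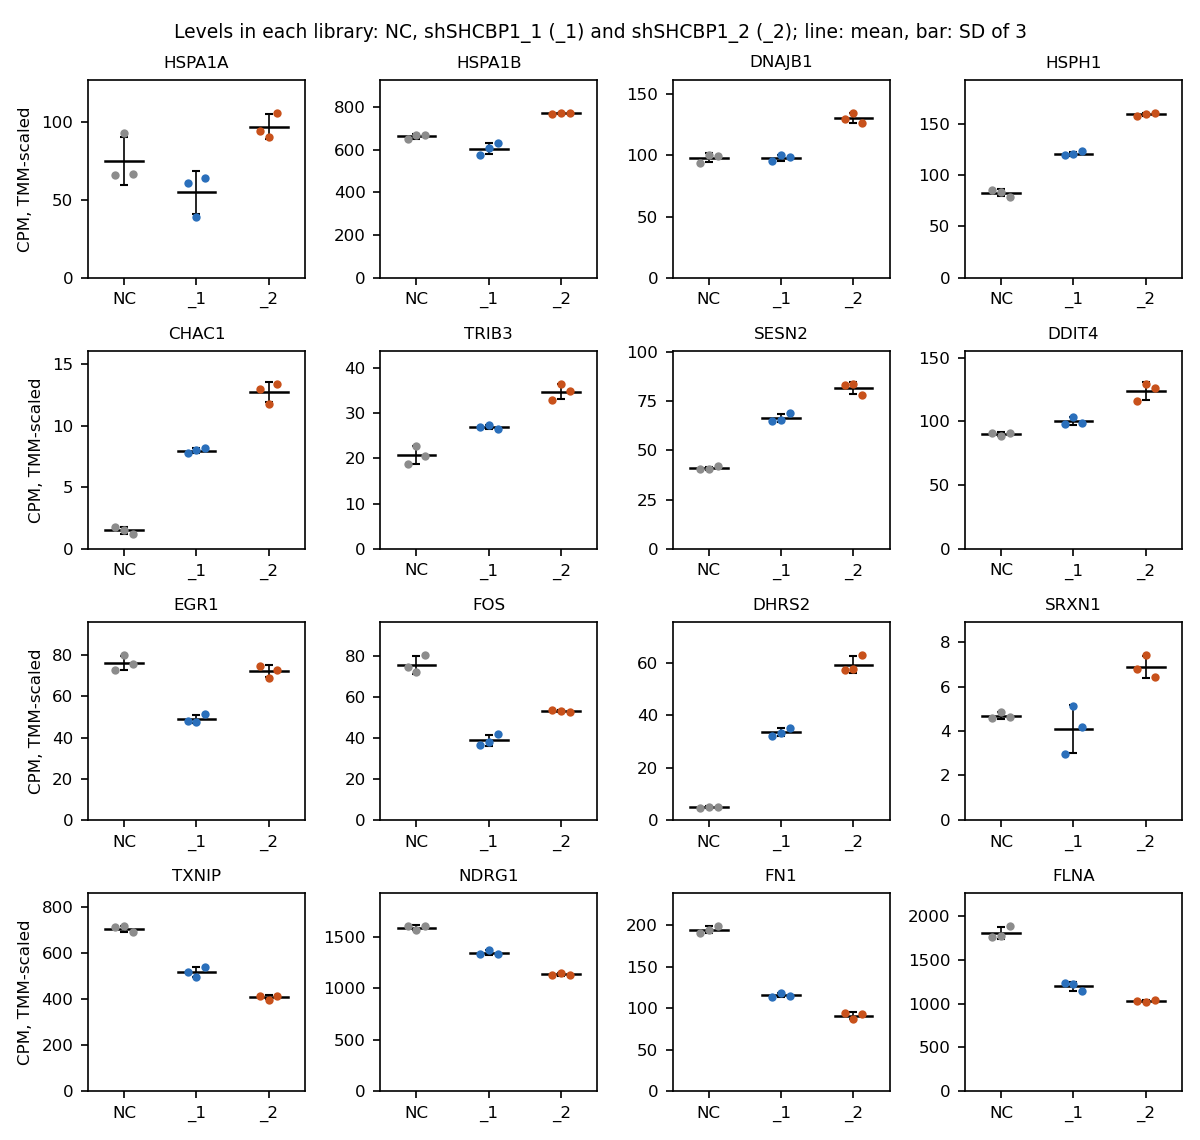
Level in TMM-scaled CPM (vertical axes, from 0) of 16 genes in each of the 3 libraries of NC (grey), shSHCBP1_1 (blue) and shSHCBP1_2 (orange), with the mean as a line and the SD of 3 libraries as a bar. For CHAC1, SESN2 and DHRS2 the second hairpin lies farther from NC than the first, whereas for EGR1 and FOS the first hairpin is the group farthest below NC.

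Early response genes, transcription factors switched on within minutes of growth factor signalling, formed the third group. Of 29 tested, 7 were higher and 0 lower (24.1% higher against 5.09%), with a median of 0.20. EGR1, a zinc finger factor, stood at 47.9, 47.7 and 51.4 CPM with the first hairpin and at 74.6, 69.0 and 72.8 with the second. The second hairpin overlapped NC (73.0, 80.0 and 75.9), and the first lay below both. The log2 difference was 0.56 (SE 0.05, adjusted p = 2.06e-10). FOS, a subunit of the AP-1 factor, stood at 36.7, 38.0 and 41.7 CPM and at 53.5, 53 and 52.4 (0.45, SE 0.06), and NC was above both at 71.9 to 80.2. FOSB, its relative, showed the same order, at 17.6, 17.1 and 18.7 CPM, 22, 23.4 and 22.3 CPM, and 29.7 to 34.8 CPM in NC (0.35, SE 0.09). MYC and JUNB had another order. MYC, a transcription factor of cell growth, stood at 215, 228 and 231 CPM and at 259, 261 and 260 (0.21, SE 0.03), with NC lowest at 182 to 189. JUNB rose by 0.20 (SE 0.05) with NC lowest as well. JUND, the most abundant member to rise, stood at 348, 350 and 384 CPM and at 448, 408 and 433 (0.25, SE 0.03). IER2 rose by 0.20, and without replicate 1 of shSHCBP1_1 its adjusted p was 0.0698.

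Genes of the p53 pathway and CDK inhibitors showed 8 higher and 0 lower of 30 (26.7% higher), with a median of 0.08. The count was 5 without replicate 1 of shSHCBP1_1. AEN, a nuclease induced by p53, stood at 63.2, 61.7 and 63.1 CPM and at 82.9, 86.5 and 80.1, with NC lower at 40.7 to 48.0 (0.41, SE 0.05, adjusted p = 7.14e-08). PLK3, a stress-responsive kinase, showed 0.44 (SE 0.13, adjusted p = 0.0227) at 7.64 to 9.44 CPM and 9.23 to 12.7, groups that overlapped, and lost its call in 4 of the 6 fits without a library. CDKN1A, the p21 inhibitor and the best known p53 target, rose by 0.22 (SE 0.06, adjusted p = 0.0146), a call lost in 3 of these 6 fits.

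DNA replication genes rose in part, while mitotic genes were mixed. Of 36 replication genes, 10 were higher and 2 lower (27.8% and 5.56%), with a median of 0.03. At 64 to 256 CPM, 9.76% of all genes were higher. MCM10, which helps to start the replication fork, stood at 72.6, 68.9 and 68.6 CPM and at 86.5 in each of the 3 libraries of the second hairpin (0.30, SE 0.05, adjusted p = 1.28e-05). E2F1, the factor that switches on S-phase genes, stood at 123, 128 and 129 CPM and at 146, 155 and 148 (0.24, SE 0.04). TK1, a thymidine kinase, rose by 0.27 (SE 0.04) and the loading factor CDC6 by 0.22 (SE 0.05). RRM2, the small subunit of ribonucleotide reductase, went the other way, from 179, 175 and 182 CPM to 161, 155 and 151 (-0.20, SE 0.04). The count of 10 was 6 without replicate 3 of either hairpin. Of 33 mitotic spindle and checkpoint genes, 2 were higher and 5 lower (6.06% and 15.2%), with a median of -0.05. Among all genes between 64 and 256 CPM, 9.76% were higher and 9.54% lower. UBE2C, which drives protein degradation in mitosis, stood at 218, 212 and 218 CPM and at 186, 186 and 179 (-0.24, SE 0.03, adjusted p = 1.23e-06). TOP2A, the mitotic topoisomerase, fell by 0.16 (SE 0.03) and lies above 256 CPM, where 39% of all genes were lower. CENPF, a kinetochore protein, rose by 0.16 (SE 0.04). The count of 5 was 2 without replicate 2 of shSHCBP1_2, 3 without replicate 3 of shSHCBP1_1 and 3 with scaling to total counts.

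The list closest to SHCBP1 in function, SHC adaptors and midbody genes, had 0 of 20 higher and 3 lower (15% against 4.44%), with a median of -0.05. Among all genes, 9.54% were lower between 64 and 256 CPM and 39% above 256 CPM, so this count is not far from the background at these levels. KIF20A, a midbody kinesin, stood at 124, 125 and 130 CPM with the first hairpin and at 110, 104 and 105 with the second (-0.24, SE 0.04, adjusted p = 3.01e-05). KIF23, the centralspindlin kinesin that binds SHCBP1, stood at 121, 116 and 127 CPM and at 111, 105 and 106 (-0.18, SE 0.04, adjusted p = 0.00277). In both genes NC (119 to 120 and 112 to 126 CPM) was closer to the first hairpin. RHOA, the GTPase of the contractile ring, fell by 0.13 (SE 0.03) and lies above 256 CPM. Without replicate 3 of shSHCBP1_1 the list had 5 lower members.

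Genes that act on the hairpin itself were looked at as a list of microRNA processing and Argonaute genes. Of 18, 4 were higher and 0 lower (22.2%), with a median of 0.00. AGO3 stood at 34.8, 34.7 and 30.2 CPM and at 41.5, 41.2 and 39.2 (0.29, SE 0.07, adjusted p = 0.0024). DICER1, the processing enzyme, stood at 75.6, 78.6 and 81.1 CPM and at 88.1, 86.3 and 93.6 (0.19, SE 0.05). AGO2, the Argonaute that cuts its targets, rose by 0.18, and its adjusted p was 0.0702 without replicate 1 of shSHCBP1_2. Without that library, or without replicate 3 of the same hairpin, 2 members passed in place of 4. Interferon response and RNA sensing genes, which double-stranded RNA can switch on, had 1 higher and 1 lower of 25 tested (4% each, against 5.09% and 4.44% of all genes). IFIT5 stood at 6.45, 6.05 and 8.13 CPM and at 11.1, 9.11 and 9.66 (0.53, SE 0.14), a call lost in 3 of the 6 fits without a library. MAVS, the adaptor of the RNA sensors, was lower, at 134, 110 and 103 CPM and at 99.1, 90.7 and 95.5 (-0.28, SE 0.05, adjusted p = 0.000322), and DESeq2 did not call it (adjusted p = 0.14).

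Oxidant and metal response genes moved singly. Of 24 NRF2, glutathione and thioredoxin genes, 3 were higher and 1 lower (12.5% and 4.17%), and none of the 3 rises passed without replicate 1 of shSHCBP1_1. SRXN1, which repairs oxidised peroxiredoxins, stood at 2.98, 5.12 and 4.17 CPM and at 6.78, 7.41 and 6.44 (0.76, SE 0.18), and without that library its adjusted p was 0.055. Of 7 metallothionein and zinc genes tested, 1 was higher and 1 lower. SLC30A1, a zinc exporter, stood at 28.5, 29.7 and 32.7 CPM and at 41.0, 41.2 and 39.0 (0.42, SE 0.07, adjusted p = 1.75e-05). MT2A, a metallothionein that binds zinc and copper, stood at 73.6, 67.9 and 81.0 CPM and at 59.9, 51.9 and 55.2 (-0.41, SE 0.06, adjusted p = 1.58e-06). Both genes are known to be induced by zinc through the same factor, MTF1, and here they moved in opposite directions.

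Among single genes, DHRS2 had the smallest adjusted p of all 17567. DHRS2 encodes a short-chain dehydrogenase. It stood at 32.2, 33.4 and 35.3 CPM with the first hairpin and at 57.5, 57.7 and 63.1 with the second, against 4.43, 5.01 and 5.04 in NC. The 3 groups were fully separate, and the log2 difference between the hairpins was 0.82 (SE 0.06, adjusted p = 1.3e-13). EPDR1, a lysosomal ependymin relative, stood at 3.66, 2.52 and 3.11 CPM and at 6.99, 4.73 and 5.65 (0.89, SE 0.19). PDX1, a homeobox factor of the pancreas, stood at 2.73, 3.89 and 2.90 CPM and at 5.70, 5.23 and 6.44 (0.87, SE 0.19). TAF7L, a germ-cell relative of a TFIID subunit, C1S, a complement protease, and C1orf226 rose by 0.81, 0.70 and 0.69. KLKP1, a transcribed pseudogene of the kallikrein cluster, had the largest rise among the genes chosen by the naming rule at 4 CPM or more: 2.54, 2.96 and 2.33 CPM became 6.35, 6.57 and 4.8 (1.18, SE 0.20), with NC at 0.0777 to 0.548. CD14, a monocyte marker, rose by 1.25 (SE 0.30) from 0.848 to 1.37 CPM to 2.08 to 2.96. CD14 was the single one of 4 tested immune cell genes past the threshold, and 3 of the 4 had a positive difference. DESeq2 called 0 members of that list higher, but it gave no adjusted p to CD14, so it did not test that rise. PTPRC, the defining leukocyte gene, stayed at 0 counts.

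Most cytosolic ribosomal protein genes fell by small amounts. All 29 listed cytosolic ribosomal protein genes were tested, 24 were lower and 0 higher (82.8% against 4.44% of all genes), and the median was -0.11. Taken by name after the values were seen, 66 of 83 such genes were lower and 0 higher. They are abundant, and 31.9% of other genes above 256 CPM were lower too. RPL7A, a large-subunit protein, stood at 2986, 2983 and 3082 CPM with the first hairpin and at 2713, 2623 and 2662 with the second, with NC at 3936 to 4099. The second hairpin was lower in every library, and the log2 difference was -0.18 (SE 0.02, adjusted p = 6.81e-08). RPS27, a small-subunit protein, stood at 563, 526 and 528 CPM and at 498, 434 and 475 (-0.20, SE 0.03). The elongation factor EEF1A1, which brings charged tRNAs to the ribosome, had the largest fall in CPM of the genes chosen by the naming rule, from 8528, 8744 and 8619 to 7517, 7634 and 7482 (-0.19, SE 0.02, adjusted p = 3.97e-10). NC stood at 12180 to 12640 CPM. EEF2, the translocation factor, fell by 0.12 (SE 0.02). A match to the names of initiation factors, made after the values were seen, took 131 rows, 35 of them at 0 counts in all 6 libraries. Of the 66 transcripts tested, 9 were lower and 4 higher (13.6% and 6.06%), and 53 did not pass. Among them EIF4B fell by 0.17 (SE 0.03) and EIF3L by 0.20 (SE 0.03), while EIF5 rose by 0.36 (SE 0.04), from 127 to 139 CPM to 169 to 173. The highest difference of the 66 was 1.25, in EIF3CL, a gene with a near-identical copy whose groups overlapped. Of 20 small nucleolar RNA host genes, also taken by name after the values were seen, 8 were lower and 1 higher (40% and 5%). They are non-coding transcripts, several of which share the pyrimidine-tract start of ribosomal protein genes, and a shared cause was not tested. GAS5 stood at 641, 622 and 639 CPM and at 556, 547 and 555 (-0.20, SE 0.03), and SNHG1 fell by 0.18 (SE 0.03). Both lie above 256 CPM, where 39% of all genes were lower. SNHG12 was the 1 that rose (0.15, SE 0.04), a call lost in 2 of the 6 fits without a library. Ribosomal protein genes of mitochondria, taken in the same way, were spread around 0, with 3 higher and 2 lower of 75 (4% and 2.67%).

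**Figure D3:**
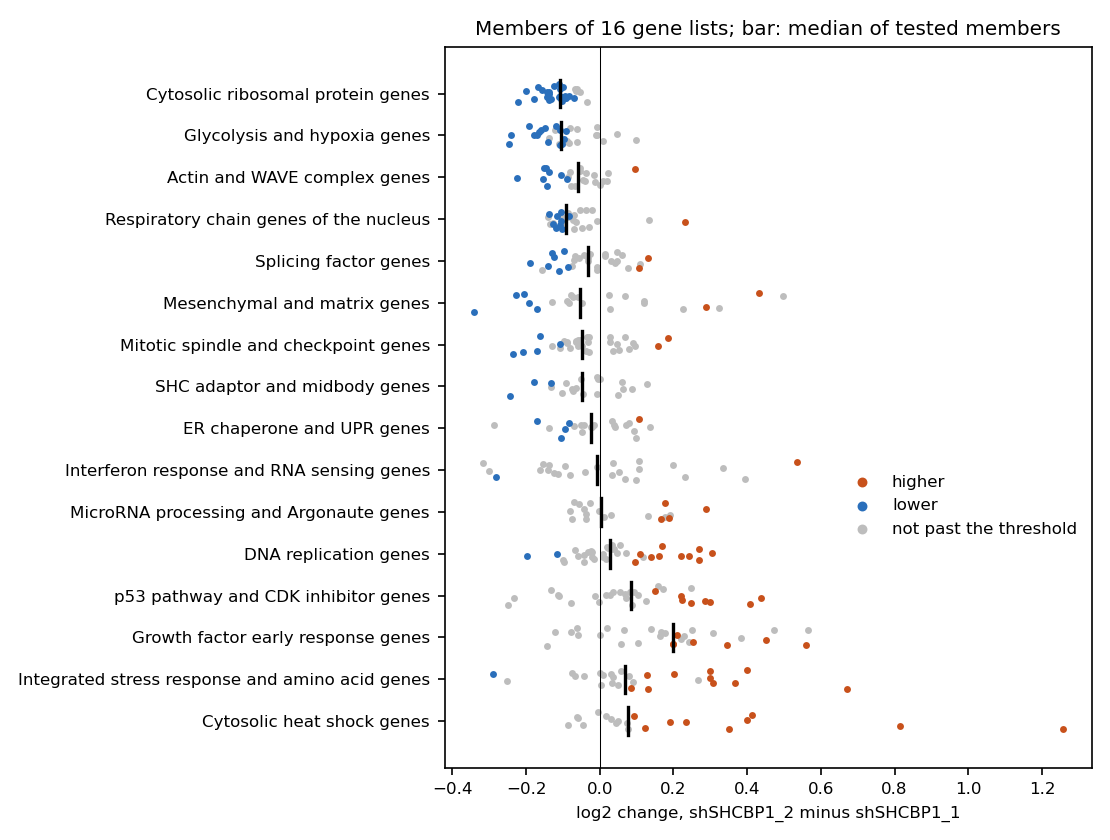
Log2 difference of shSHCBP1_2 minus shSHCBP1_1 (horizontal axis) for the tested members of 16 gene lists (vertical axis), each point a gene and each bar the list's median. Orange genes were higher, blue lower and grey not past the threshold: 24 of 29 ribosomal protein genes are blue, and 9 of 20 heat shock genes are orange.

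Part of the glycolysis and hypoxia genes fell as well. Of 30, 15 were lower, 0 higher and 15 not past the threshold (50% against 4.44% of all genes), with a median of -0.11. Under total counts 13 were lower. Several are abundant, and above 256 CPM 39% of all genes were lower. NDRG1, a hypoxia-induced gene, stood at 1333, 1370 and 1331 CPM with the first hairpin and at 1129, 1146 and 1123 with the second, and NC was higher at 1562 to 1599. The log2 difference was -0.25 (SE 0.02, adjusted p = 6.74e-11). PFKFB4, a regulator of glycolytic flux, stood at 54.3, 58.8 and 54.0 CPM and at 48.4, 46.0 and 46.7 (-0.24, SE 0.06). GAPDH, a glycolytic enzyme often used to normalise, stood at 3382, 3390 and 3452 CPM and at 2961, 3047 and 2934 (-0.19, SE 0.02, adjusted p = 5.83e-09). PGK1 and LDHA each fell by 0.17 (SE 0.02) and PDK1, which closes the entry to the citrate cycle, by 0.18 (SE 0.04). TXNIP, an inhibitor of glucose uptake that glucose itself induces, stood at 515, 497 and 541 CPM and at 415, 396 and 412 (-0.34, SE 0.03), the smallest adjusted p of the falls at 3.73e-12. NC was above both at 691 to 715 CPM.

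Respiratory chain genes of the nucleus had 9 lower and 1 higher of 30 (30% and 3.33%, against 4.44% and 5.09% of all genes). The median was -0.09. Several of the lower ones, such as ATP5F1B, are abundant, and above 256 CPM 39% of all genes were lower. With scaling to total counts 4 were lower. COX5A, a cytochrome oxidase subunit, showed -0.14 (SE 0.04), and its adjusted p was 0.0696 without replicate 1 of shSHCBP1_1. UQCRFS1, the iron-sulfur subunit of complex III, was the exception and rose, from 97.9, 92.0 and 97.4 CPM to 120, 109 and 109 (0.23, SE 0.04, adjusted p = 0.000238). Transcripts of the mitochondrial genome had 3 higher and 0 lower of 13 (23.1%), and 5 higher with total counts. MT-CYB stood at 1246, 1265 and 1235 CPM and at 1369, 1406 and 1371 (0.15, SE 0.02, adjusted p = 1.32e-05). MT-CO2 rose by 0.10 (SE 0.02), and MT-ND1 by 0.06, a call lost in all 6 fits without a library.

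Part of the actin genes fell. Of 24 actin and WAVE complex genes tested, 8 were lower and 1 higher (33.3% and 4.17%, against 4.44% and 5.09% of all genes). The median was -0.06. Among all genes, 9.54% were lower between 64 and 256 CPM and 39% above 256 CPM. FLNA, which crosslinks actin filaments, stood at 1236, 1225 and 1144 CPM with the first hairpin and at 1027, 1018 and 1041 with the second (-0.22, SE 0.03, adjusted p = 1.08e-08), and NC was higher at 1767 to 1887. The WAVE complex members WASF2, BRK1 and ABI2 showed -0.14 (SE 0.04) each, and each of these calls was lost in 1 or more of the 6 fits without a library. The count of 8 was 4 without replicate 2 of shSHCBP1_1 and 3 without replicate 1 or without replicate 2 of shSHCBP1_2. Microtubule and tubulin genes were mixed, with 4 higher and 2 lower of 15 (26.7% and 13.3%) and a median of -0.02. The rises of TUBA4A (0.39, SE 0.12) and TUBB2A (0.29, SE 0.08) lost their calls in 5 and 3 of the 6 fits without a library. The lower ones were STMN1 and TUBB. STMN1, a protein that takes microtubules apart, stood at 224, 224 and 222 CPM and at 191, 190 and 190 (-0.23, SE 0.03, adjusted p = 1.23e-06). TUBB, a beta-tubulin, fell by 0.12 (SE 0.02).

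Mesenchymal and matrix genes had 5 lower and 2 higher of 22 tested (22.7% and 9.09%). FN1, fibronectin, stood at 114, 118 and 114 CPM and at 93.7, 86.6 and 93.4, with NC at 191 to 199 (-0.34, SE 0.04, adjusted p = 1.31e-07). LOX, which crosslinks collagen, fell by 0.19 (SE 0.05) and VIM, an intermediate filament, by 0.17 (SE 0.03). The rises of CTGF (0.43, SE 0.14), a target of the YAP factor, and ZEB2 (0.29, SE 0.08), a repressor of epithelial genes, lost their calls in 4 and 2 of the 6 fits without a library. The count of 5 was 3 without replicate 1 of shSHCBP1_2. Of 14 epithelial genes tested, 2 were higher and 0 lower (14.3%). TJP1, a tight junction protein, stood at 30.7, 34.2 and 30.5 CPM and at 39.4, 39.0 and 41.4 (0.33, SE 0.07). Of 12 immune cell markers 4 were tested, and the list summed to 7.71 to 9.23 CPM with the first hairpin and 9.95 to 11.5 with the second. Of 12 fibroblast and endothelial markers 4 were tested with 0 calls, and the list summed to 5.52 to 6.92 and 5.51 to 8.26 CPM. The neurofilament genes NEFM and NEFL showed -0.23 and -0.13 (SE 0.04 each), and NEFL lost its call in 3 of the 6 fits without a library. The part of other cells in the results was not tested.

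Chaperones of the endoplasmic reticulum, which fold secreted proteins, fell where they passed the test. Of 22 genes of this compartment's chaperones and stress response, 4 were lower and 1 higher (18.2% and 4.55%), the latter the stress factor XBP1 (0.11, SE 0.03, lost in 5 of the 6 fits without a library), and the median was -0.02 (0.00 with total counts). The count of 4 was 2 without replicate 1 of shSHCBP1_2. HSPA5, the main chaperone of this compartment, stood at 7011, 7154 and 7194 CPM and at 6782, 6675 and 6689 (-0.08, SE 0.02, adjusted p = 0.00278), and NC stood at 10740 to 10980. HSP90B1, the HSP90 of the compartment, fell by 0.17 (SE 0.02). Both chaperones lie above 256 CPM, where 39% of all genes were lower. Of 30 sterol and fatty acid synthesis genes, 0 were higher and 4 lower (13.3%), with SQLE, a step of cholesterol synthesis, at -0.16 (SE 0.04). This count was 2 without replicate 1 of either hairpin. TMBIM6, a membrane protein of the same compartment that limits cell death, stood at 596, 592 and 592 CPM and at 511, 497 and 496 (-0.24, SE 0.03).

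Nuclear RNA and its processing showed small changes in both directions. MALAT1, an abundant nuclear non-coding RNA, stood at 432, 409 and 399 CPM and at 329, 329 and 323, with NC at 554 to 585 (-0.34, SE 0.03, adjusted p = 9.65e-12). Of 29 splicing factor genes, 7 were lower and 2 higher (24.1% and 6.9%). HNRNPA1, a splicing repressor, stood at 2207, 2221 and 2144 CPM and at 1861, 1995 and 1905 (-0.19, SE 0.02). SRSF7, a splicing activator, rose by 0.13 (SE 0.03). Of 398 zinc finger genes named ZNF, a family added after the values were seen, 29 were higher and 10 lower (7.29% and 2.51%). The shares of all genes were 5.09% and 4.44%, and those of genes between 16 and 64 CPM were 8.01% and 3.09%. The ZNF shares were thus near those of genes at that level.

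**Figure D4:**
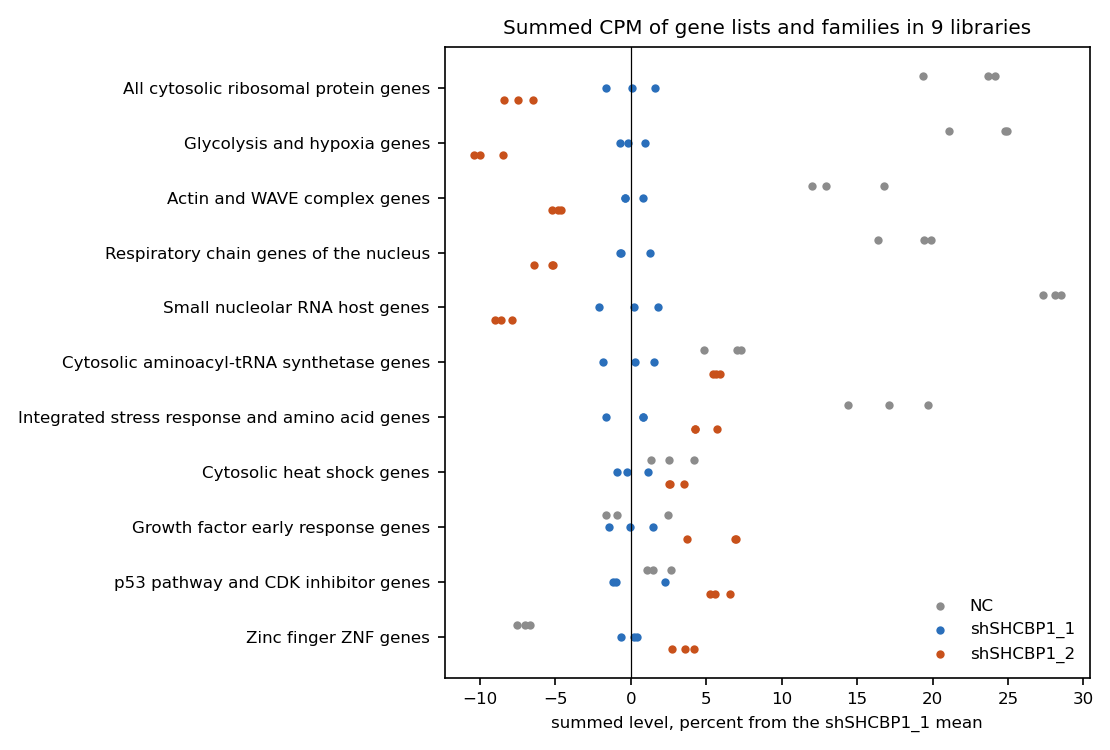
Summed CPM of 11 gene lists and families in each library, as percent above or below the shSHCBP1_1 mean (horizontal axis), each point a library of NC (grey), shSHCBP1_1 (blue) or shSHCBP1_2 (orange). Ribosomal protein genes and glycolysis genes run from NC through the first hairpin to the second, and for early response genes the NC and shSHCBP1_1 libraries overlap while those of shSHCBP1_2 lie above.

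Summed over a list, the levels of the libraries fell into a few orders. All cytosolic ribosomal protein genes together stood at 110500 to 114900 CPM in NC, 91030 to 94020 with the first hairpin and 84790 to 86550 with the second. Glycolysis and hypoxia genes stood at 21070 to 21740, 17280 to 17560 and 15590 to 15930 CPM. For both, the second hairpin was the group farthest from NC, and no libraries of different groups overlapped. The integrated stress response list had another order: NC was highest at 4897 to 5124 CPM, the first hairpin lowest at 4209 to 4316 and the second between at 4463 to 4524. This order differed from that of CHAC1, TRIB3 and SESN2, whose means were lowest in NC. The comparison of each hairpin with NC shares the NC libraries, and no test was made of it here.

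Signalling lists moved in a few members. Of 19 Notch genes and targets, 5 were higher and 1 lower (26.3% and 5.26%). HEY1, a repressor that Notch switches on, stood at 169, 176 and 177 CPM and at 209, 205 and 207 (0.25, SE 0.03, adjusted p = 5.6e-07), with NC at 148 to 153. NOTCH1, the receptor, showed 0.24 (SE 0.06) and HES1, another target, 0.18 (SE 0.05), and their calls were lost in 1 and 2 of the 6 fits without a library. Without replicate 3 of shSHCBP1_2, 2 members were higher, and without replicate 1 or 2 of shSHCBP1_1 or replicate 1 of shSHCBP1_2, 3. Of 12 disulfidptosis genes, the machinery of a cell death by disulfide stress that includes the cystine transporter and the WAVE complex, 1 was higher (SLC3A2, above) and 1 lower (GYS1, glycogen synthase, at -0.13, SE 0.04, lost in 4 of the 6 fits without a library). Of 26 lysosome and autophagy genes, 2 were higher and 1 lower (7.69% and 3.85%). ATG5, which acts in forming autophagosomes, stood at 20.5, 19.97 and 20.2 CPM and at 25, 25.1 and 25.4 (0.32, SE 0.08).

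The largest falls were mostly in rare transcripts or in genes with near-identical copies, for which the counting can split reads between copies. STAG3L1, a relative of the cohesin gene STAG3, stood at 16.7, 21.2 and 22 CPM with the first hairpin and at 12.1, 10.2 and 7.30 with the second (-1.01, SE 0.12, adjusted p = 5.52e-08), and its copy STAG3L2 fell by 0.50 (SE 0.09). Summed over 3 copies, the level was 57.8, 57.2 and 56.4 CPM against 39.4, 38.5 and 39.4, a log2 ratio of -0.55 with no overlap, and NC stood at 59.1 to 61.3. NOMO3 gave another picture: -0.96 by itself (22.7, 49.3 and 49.6 CPM against 21.4, 20.9 and 19.5; DESeq2 adjusted p = 0.061), but -0.08 with overlapping groups once its 3 copies were summed. GPR89B, part of a Golgi ion channel, showed 0.97 by itself and a log2 ratio of 0.23 with no overlap when summed with its copy. EIF3CL (1.25) and MAGED4 showed fitted rises of more than 2-fold, but the groups overlapped in each gene by itself. EIF3CL held 175, 220 and 104 counts with the first hairpin and 762, 190 and 173 with the second. MAGED4 held 123, 56 and 28 counts and 185, 39 and 248. Summed with their copies, they did not separate the groups either (log2 ratios of 0.44 and 0.67).

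Falls in genes for which no copies were summed were led by TSHZ2, a zinc finger homeobox factor. It stood at 6.82, 8.51 and 7.78 CPM and at 4.62, 5.08 and 4.8 (-0.67, SE 0.16, adjusted p = 0.00333). ITPR1, the calcium release channel of the endoplasmic reticulum, stood at 23.4, 24.1 and 22.8 CPM and at 15.9, 18.4 and 16 (-0.48, SE 0.09, adjusted p = 0.000138). NC overlapped the first hairpin for TSHZ2 (6.28 to 7.36 CPM) and was above it for ITPR1 (28.7 to 32.0 CPM). C1orf50, SWSAP1, ZNF283, SULT1A1, UNC13A and CATSPER2 also fell, by 0.57, 0.55, 0.53, 0.53, 0.52 and 0.47. Each of these 6 lay below 11 CPM in the 6 libraries and lost its call in 2 to 4 of the 6 fits without a library, and the named falls of this size that held in all 6 were those of STAG3L1, NOMO3, TSHZ2, STAG3L2 and ITPR1.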

How the data were processed

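Messenger RNA was sequenced in 15 libraries, and the 6 libraries of the SHCBP1 hairpins were compared. The authors deposited raw whole-number counts for each gene symbol, without normalization, in a table of 58735 rows. Which aligner and counter made them is not given in the sources used here. Per the submitters' processing notes the build was mm10, and the labels name the mouse, whereas the symbols are human, so no coordinates were used. Columns were tied to libraries by their names. Rows whose names were repeated or date-like (200 names, 1768 rows, 0.23 to 0.235% of the counts of these 6 libraries) were dropped.

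The counts of the 6 libraries alone were fitted with edgeR 4.0.16 in R 4.3.3: filterByExpr (count minimum 10, total minimum 15), TMM scaling, the quasi-likelihood F test between groups, and Benjamini-Hochberg adjustment over all 17567 genes. Adjusted p-values are from edgeR unless DESeq2 1.42.0 is named. SE is the size of the log2 difference divided by the square root of F. The 3 NC libraries were set on the same TMM scale but did not enter the fit. The fit was tested on simulated counts.

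Lists were described by counts and medians beside all genes, without a set test. The members and the 31 lists were chosen with earlier results of these data known. Of their symbols, 20 were matched through older names. Named genes are both targets, the 12 largest rises and falls past the threshold with a mean log2 CPM of at least 2 and groups that do not overlap, the 5 rises and falls largest in CPM, and up to 2 of each per list; 1 gene the rule takes is not reported here. Left out outside lists were sex-linked genes XIST and those of the Y chromosome, clone, LOC and LINC names, antisense, small RNA and readthrough names, and pseudogenes recognised by name. The 5 rises and falls of smallest adjusted p, further list members, families by name and sums of copies were added after values were seen. Replicate numbers did not pair the libraries. There were 13 alternatives, among them leaving out each library. The fits without a library leave 2 libraries in a group.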

Additional observations from a re-analysis of the deposited data

How the results depend on the processing

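DESeq2 called 1050 genes, 570 higher and 480 lower, and 1 rather than 33 over 2-fold, where it gave no adjusted p to 31 of the 33. Scaling to total counts left 506 genes lower in place of 780. Without single libraries the count ran from 1048 to 1508, with 541 to 803 higher and 491 to 705 lower; these fits keep 5 libraries, and the cause was not tested beyond that. Of the 1674 calls, 989 to 1273 were kept in the same direction in them. The same numbers in the labels do not pair the libraries: their deviations correlated at -0.024, -0.017 and -0.025, and a fit with the replicate block called 1628 genes. TMEM45A was at -0.28 to -0.14 without single libraries, and at -0.22 with a filter on CPM. CBS ran from -0.42 to 0.0073 without single libraries. Of 155 named genes past the threshold, 94 kept their call in all 6 such fits. Of the named genes with a value, none other than CBS changed direction under the 13 alternatives; DESeq2 gave an adjusted p for 136 of the 155 and did not call 28 of these. Of 4683 genes below 4 CPM, 49 were called; the power to detect a change at that depth was not measured.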
